A study of Homo sapiens with 8 samples.

Results

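The 37 genes described here encode interstitial matrix proteins and matrix modifiers: the fibrillar and other collagens, fibronectin and microfibril proteins, matricellular proteins, proteoglycans, basement membrane linker proteins and cross-linking enzymes. They were given as a list of names, drawn up with earlier results of these data known, and all 37 were found among the 58395 genes of the count table. Of these, 32 passed the filter on low counts and were among the 15637 genes tested. RNA was sequenced from AB8, a podocyte-derived human cell line that carried the construct pIND21_hCrb2+GFP_S267A in every library, at passages 3 to 8 after the modification. In 4 libraries the construct was not induced, and in the other 4 it had been switched on with doxycycline for 48 h, so that the cells made CRB2, an apical polarity protein of the Crumbs family, with the S267A change. The comparison asks which genes differ between cells in which this form of CRB2 was induced and cells in which it was not. The labels do not say whether the 4 libraries of a group came from separate cultures, nor whether the line is 1 clone. Libraries of doxycycline-treated cells without the construct were not analysed here, so the drug, the GFP and the CRB2 protein cannot be told apart.

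The interstitial matrix is a mesh of collagen fibrils, fibronectin fibers, microfibrils and proteoglycans outside the cell. Fibronectin is assembled at the cell surface and serves as a template on which collagens and fibrillins are laid down, matricellular proteins such as thrombospondins and tenascins modulate adhesion, and lysyl oxidases and peroxidasin cross-link the finished network. Podocytes rest on a basement membrane whose linker proteins perlecan, agrin and the nidogens tie laminin to collagen IV, and podocyte lines in culture also make interstitial matrix proteins.

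The libraries held 16829454 to 23081616 counted reads, and 3 reads corresponded to 0.131 to 0.179 CPM (read counts relative to library size, scaled by the trimmed mean of M values). CRB2 stood at 8.31, 26.0, 26.4 and 21.8 CPM in the non-induced libraries 1 to 4 and at 1734, 4252, 4599 and 4481 CPM in the induced libraries 1 to 4, a log2 change of 7.51 (edgeR quasi-likelihood test, adjusted p = 0.00160), which matched the labels in every library. The libraries numbered 1 stood apart from numbers 2 to 4 in both groups. Same-numbered libraries deviated together from their group means, with correlations over 15637 genes of 0.849, 0.529, 0.493 and 0.421 for numbers 1 to 4. Unlike numbers among 2 to 4 also correlated, at 0.216 to 0.491, and the group means include library 1. These correlations therefore cannot show whether numbers 2 to 4 are true pairs. The number shared in the labels is used below as a block, and fits without it are given beside the counts. Of the podocyte markers, NPHS1 had 3 reads over all 8 libraries, while SYNPO, WT1 and FOXC2 were present at 39.6, 3.18 and 13.7 CPM in non-induced cells. In bulk RNA, fewer cells of a kind and less RNA per cell cannot be told apart.

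With the replicate number as a block, 9 of the 32 tested matrix genes rose on induction and 9 fell at an adjusted p of 0.05 (edgeR quasi-likelihood test, adjusted over all 15637 genes). The genes that rose were HSPG2, COL8A1, COL12A1, VCAN, EFEMP1, TNC, COL5A2, SPARC and THBS1, by log2 changes from 0.42 down to 0.13. Those that fell were COL6A3, COL7A1, FN1, COL6A2, LOXL2, LOXL1, COL6A1, PXDN and ECM1, with log2 changes from -0.75 to -0.15. All 3 cross-linking enzymes of the list and all 3 type VI collagen chains fell, although the calls of PXDN and COL6A3 were lost when 1 of several replicate numbers was left out. Of the 6 tested matricellular genes, 3 rose and 1 fell, but only the call of TNC held with any 1 number left out. "Rose" and "fell" below refer to this fit.

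Over all tested genes, 7.51% rose and 6.29% fell in the same fit, and 13.8% changed in either direction against 18 of 32 matrix genes. More abundant genes are called more often: among genes with a mean of at least 50 CPM, a limit chosen after the values were seen, 22.5% changed, against 16 of 24 matrix genes. The median log2 change of the 32 genes was -0.039 with the block and -0.043 without it, beside a median near 0 over all genes. In all 4 pairs the induced library was the higher for 10 matrix genes and the lower for 10 others, where 18.6% and 17% of all genes had these patterns. Among genes with a mean of at least 50 CPM, 48.3% had the same sign in all 4 pairs, against 18 of 24 matrix genes.

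Without the block, 0 of the 32 genes passed, as did 0.0384% of all genes. At an unadjusted p of 0.05, 5 of them (COL7A1, COL12A1, FN1, HSPG2 and LOXL1) were past the line, where 9.38% of all genes were. DESeq2 called 2 of the 30 genes it tested, COL7A1 (adjusted p = 0.00277) and HSPG2 (adjusted p = 0.0133), with 1.36% of all genes called. With the block, DESeq2 called 13 of 30 against 7.58% of all genes. The groups stood fully apart for 2 of the 32 tested matrix genes, HSPG2 and COL7A1, a share close to the 7.04% of all tested genes.

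Leaving out both libraries numbered 1 gave 9 calls without the block, where 3.44% of all genes were called: COL6A1, COL6A2, COL6A3, COL8A1, FN1, EFEMP1, VCAN, LOXL2 and PXDN. With the block on the remaining 6 libraries, 16 of 32 genes were called, 7 higher and 9 lower, against 10.9% of all genes. Under each of 11 alternatives that kept the block, 11 genes stayed past the threshold: COL12A1, COL6A1, COL6A2, COL8A1, EFEMP1, FN1, HSPG2, LOXL1, LOXL2, TNC and VCAN. The other 7 lost their call when at least 1 replicate number was left out, and those values stand beside each gene.

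**Figure D1:**
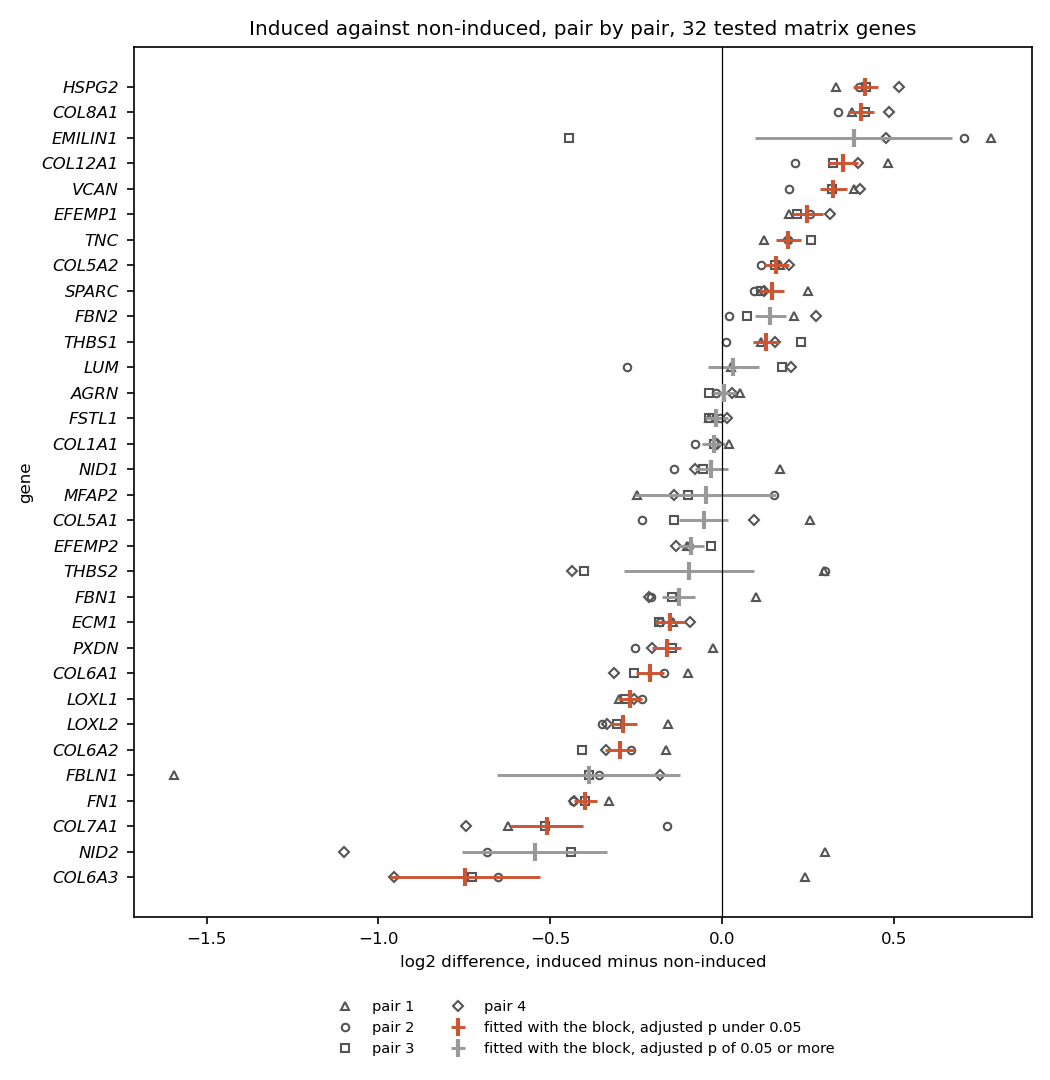
The log2 difference of induced minus non-induced CPM is plotted on the x axis for each of the 32 tested genes (rows) and each of the 4 pairs (gray symbols), and the crosses with bars show the fitted change with the block and its standard error, in color where the adjusted p is under 0.05. The 4 pairs of FN1, LOXL1, LOXL2, HSPG2, COL8A1 and VCAN lie on 1 side of 0, whereas the pair numbered 1 of COL6A3 lies on the other side from its other 3 pairs.

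Upstream sequence is shown for 4 genes: FN1 and COL7A1, which fell, HSPG2, which rose, and THBS1, the most abundant gene of the list. The sequences come from RefSeq on GRCh38.p14, read 5′ to 3′ on the gene's own strand and ending at the base before the gene's start. That of FN1 is cut short at its downstream end, where another annotated start lies further upstream. Capitals mark matches, on either strand, to the CCAAT box (CCAAT), the GC box (GGGCGG), the TATA box (TATAAA), the AP-1 site (TGANTCA), the cAMP response element (TGACGTCA), the TEAD site (GGAATG) and the CArG box, and matches may overlap. FN1 lies at chr2:215436173-215436318 on the minus strand, COL7A1 at chr3:48595330-48595579 on the minus strand, HSPG2 at chr1:21937311-21937560 on the minus strand and THBS1 at chr15:39580829-39581078 on the plus strand.
FN1: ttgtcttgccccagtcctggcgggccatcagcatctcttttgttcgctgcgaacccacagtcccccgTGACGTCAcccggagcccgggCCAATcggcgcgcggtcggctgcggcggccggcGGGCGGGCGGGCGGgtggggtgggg
COL7A1: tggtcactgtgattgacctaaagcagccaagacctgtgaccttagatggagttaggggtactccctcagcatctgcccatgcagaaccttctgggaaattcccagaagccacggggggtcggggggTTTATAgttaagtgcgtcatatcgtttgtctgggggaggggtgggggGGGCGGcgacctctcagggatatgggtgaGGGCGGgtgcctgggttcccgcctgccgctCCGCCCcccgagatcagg
HSPG2: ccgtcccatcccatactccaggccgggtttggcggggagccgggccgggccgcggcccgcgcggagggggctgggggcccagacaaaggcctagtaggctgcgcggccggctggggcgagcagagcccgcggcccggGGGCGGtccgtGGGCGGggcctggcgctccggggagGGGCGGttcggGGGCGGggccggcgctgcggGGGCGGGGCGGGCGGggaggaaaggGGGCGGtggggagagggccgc
THBS1: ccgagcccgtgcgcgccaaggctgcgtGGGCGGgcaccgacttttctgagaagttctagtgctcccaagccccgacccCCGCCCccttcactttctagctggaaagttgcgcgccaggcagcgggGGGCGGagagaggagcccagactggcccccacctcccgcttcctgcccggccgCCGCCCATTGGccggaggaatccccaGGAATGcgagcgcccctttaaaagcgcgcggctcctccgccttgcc

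Promoters of 250 bases were found for 25 of the 37 genes and compared with 27305 RefSeq promoters of the same length. None was found for COL8A1, EFEMP1 and COL5A2, which rose, or for LOXL2 and COL6A1, which fell, so the counts below leave these genes out. A GC box match was held by 18 of the 25, among them 5 genes that rose and 5 that fell, and by 42.31% of all promoters. The FN1 sequence alone of the 25 held a cAMP response element match, which 1.77% of all promoters held. A TEAD site match occurred in 5 (COL12A1, FBN1, SPARC, THBS1 and THBS2), of which 3 rose and none fell, and in 11.9% of all promoters. CCAAT boxes were matched in 6, of which 1 rose and 2 fell, and in 33.04% of all promoters. TATA boxes were matched in 5, of which 0 rose and 3 fell, and in 11.13% of all. AP-1 sites were matched in 3, of which 0 rose and 1 fell, and in 6.6%. The CArG box was matched in 0 and in 1.14%. These matches describe the letters in the window only.

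Per length of exon (RPKM, here CPM divided by kilobases of exon), the matrix genes ranged over several orders of magnitude in these cells. THBS1 was the most abundant at a mean of 427 RPKM over the 8 libraries, followed by FN1 (206), SPARC (165), COL1A1 (139.9), LOXL2 (112), AGRN (98.3) and COL7A1 (62.7). In all, 24 of the 37 genes had a mean of 10 RPKM or more and 11 were under 0.5 RPKM. THBS1 and FN1 overlap in their ranges over libraries, since THBS1 was at 59.9 RPKM in its lowest library, below the lowest value of FN1 at 149. SPARC (144 to 211 RPKM) and COL1A1 (124 to 152 RPKM) also overlap. Reads on the 37 genes made up 1.02% to 1.75% of a library, and FN1 and THBS1 together 0.329% to 0.976%.

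**Figure D2:**
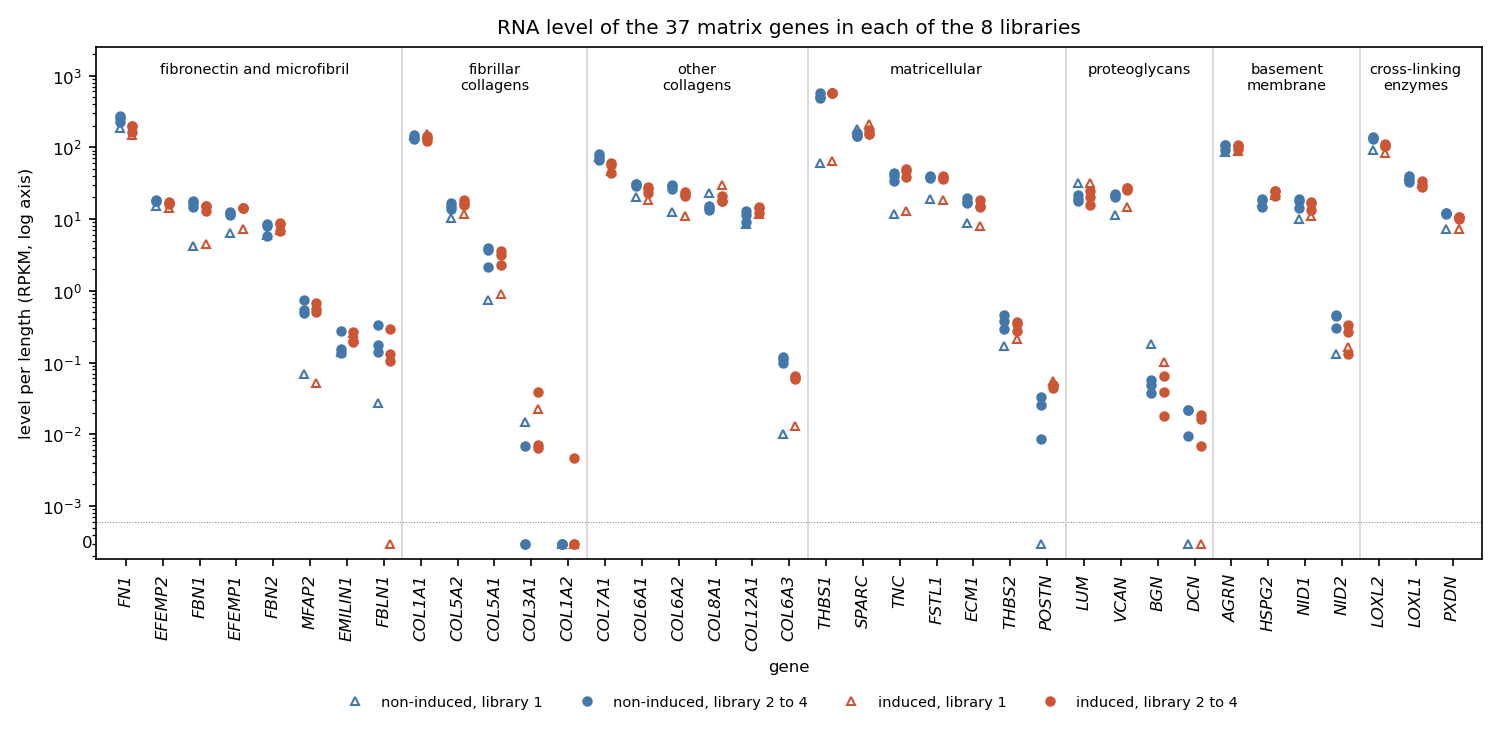
The level per length in RPKM is plotted on a log axis for all 37 genes (x axis, grouped by role) in each library, with non-induced in blue, induced in red and the libraries numbered 1 as open triangles; genes with 0 reads sit below the dotted line. By mean level the highest gene is THBS1 and the lowest is COL1A2, and DCN, COL3A1 and POSTN are the next lowest.

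FN1 encodes fibronectin, the scaffold on which other matrix proteins are assembled (ENSG00000115414, chromosome 2, 215360440 to 215436172, minus strand, GRCh38). It stood at 3238, 4669, 4500.3 and 3872 CPM in the non-induced libraries 1 to 4 and at 2576, 3459, 3411 and 2871 CPM in the induced ones. Each induced library lay below its partner, but the groups overlapped, since non-induced library 1 was below induced libraries 2 and 3. FN1 fell from 4069.8 ± 652 to 3079 ± 429 CPM (SD, n = 4), and its log2 change with the block was -0.40 (SE 0.0336, adjusted p = 7.81e-06) in edgeR. The 4 pair differences were -0.33, -0.43, -0.40 and -0.43.

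EFEMP1, or fibulin 3, is a secreted glycoprotein of elastic fibers and basement membranes. It measured 25.2, 47.4, 48.9 and 45.0 CPM without and 28.9, 56.6, 57.0 and 55.9 CPM with induction. The libraries numbered 1 lay at little more than 25 CPM in both groups, and among numbers 2 to 4 every induced library exceeded every non-induced one. The share of all genes whose groups separate in this way among numbers 2 to 4 was not counted. For EFEMP1 and the genes below, such separation therefore only describes the values and is not further evidence of a change. EFEMP1 rose at a fitted log2 change of 0.25 (SE 0.0449, adjusted p = 0.00277, edgeR with the block).

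The other microfibril genes did not pass. FBN1, the main fibrillin of microfibrils, averaged 215 ± 100.2 CPM without and 192 ± 82.0 CPM with induction (SD, n = 4), with a log2 difference of -0.13 (SE 0.0475, adjusted p = 0.0982, edgeR with the block). Its difference was 0.10 in pair 1 and below 0 in the other 3, and without the libraries numbered 1 its adjusted p was 0.00461. FBN2, its relative, averaged 93.5 ± 19.1 CPM without and 102 ± 12.8 CPM with induction and was higher in all 4 induced libraries than in their partners, with an adjusted p of 0.0556. EFEMP2, which binds lysyl oxidase and elastin, was lower in all 4, by a log2 difference of -0.0908 (adjusted p = 0.138).

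Of the remaining members of this group, FBLN1 (fibulin 1), MFAP2 (a microfibril glycoprotein) and EMILIN1 (an elastin interface protein) were near the detection limit. FBLN1 ranged from 0 to 2.45 CPM, MFAP2 from 0.152 to 2.15 CPM and EMILIN1 from 0.538 to 1.07 CPM. Their adjusted p-values with the block were 0.374, 0.912 and 0.421, so no difference was detectable at this depth.

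COL1A1, the α1 chain of type I collagen and the most abundant collagen here, did not differ detectably. It stood at 1471, 1289, 1344 and 1434 CPM in non-induced and 1491, 1221, 1323 and 1420.3 CPM in induced libraries. The groups overlapped, the log2 difference was -0.024 (SE 0.0333, adjusted p = 0.689), and the libraries numbered 1 were the highest of both groups.

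COL1A2 encodes the α2 chain, which pairs with COL1A1 in the usual type I heterotrimer. It had 0, 0, 0 and 0 reads in the non-induced libraries 1 to 4 and 0, 0, 0 and 1 in the induced ones, beside at least 1221 CPM of COL1A1 in each library. COL3A1, the chain of type III collagen, had 2, 0, 1 and 0 reads without and 3, 1, 1 and 5 with induction. Neither was tested, and with 5 or fewer reads per library no difference can be read from them.

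The type V collagen chains, which set the diameter of collagen fibrils, were present. COL5A2 measured 78.0, 114, 125 and 103 CPM without and 87.7, 123, 139 and 118 CPM with induction, and each induced library lay above its partner, although the groups overlapped. It rose at a fitted log2 change of 0.16 (SE 0.0369, adjusted p = 0.0118, edgeR with the block), with adjusted p = 0.0756 without number 3, 0.0687 without number 4 and 0.0666 in DESeq2.

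COL5A1 was lower than COL5A2 per length in all libraries, by 4.14- to 13.9-fold, and its difference was -0.0537 (SE 0.0718, adjusted p = 0.677) on the log2 scale. It lay at 8.46 and 10.1 CPM in the libraries numbered 1 and at 24.2 to 44.9 CPM in the others.

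Type VI collagen forms beaded filaments between the basement membrane and the interstitium, and 2 of its chains, COL6A1 and COL6A2, fell under every alternative with the block, while the call of COL6A3 did not hold. COL6A1 measured 107, 167, 165 and 155 CPM in the non-induced and 99.8, 148, 138 and 124 CPM in the induced libraries. COL6A2 measured 67.3, 153, 159 and 142 CPM without and 60.1, 128, 120.1 and 112 CPM with induction. For both chains each induced library lay below its partner and numbers 2 to 4 did not overlap between groups, whereas the non-induced library 1 lay below those induced libraries. The log2 changes were -0.21 (SE 0.041, adjusted p = 0.00429) for COL6A1 and -0.30 (SE 0.0429, adjusted p = 5.96e-04) for COL6A2 (edgeR with the block).

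COL6A3, the third chain of the classical heterotrimer, was scarce: 0.199, 1.91, 2.19 and 2.33 CPM without and 0.253, 1.18, 1.29 and 1.16 CPM with induction. Per length, COL6A1 exceeded it 244- to 1974-fold. The libraries numbered 1 held 4 and 5 reads, and among numbers 2 to 4 the induced ones were all lower. COL6A3 fell at a fitted log2 change of -0.75 (SE 0.22, adjusted p = 0.0350) with the block, but in pair 1 it was higher by 0.24. The adjusted p was 0.0792, 0.133 and 0.173 without numbers 2, 3 and 4 and 0.419 in DESeq2.

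COL7A1 encodes the anchoring fibril collagen (ENSG00000114270, chromosome 3, 48564073 to 48595267, minus strand, GRCh38). Its level was 807, 737, 889 and 822 CPM in the non-induced and 524, 659, 622 and 489.8 CPM in the induced libraries, from 814 ± 62.1 to 574 ± 80.0 CPM (SD, n = 4). Of the 32 tested genes it alone had all induced libraries below all non-induced ones. The pair differences were uneven, -0.62, -0.16, -0.51 and -0.75, and the log2 change of -0.51 (SE 0.11) had an adjusted p of 0.04996, at the threshold (edgeR with the block). The adjusted p was 0.169, 0.163 and 0.0991 without numbers 1, 3 and 4, and 0.0636 with upper-quartile scaling. The call was also lost when libraries were scaled by their totals only. In DESeq2 with the block the adjusted p was 7.72e-04.

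COL8A1, a short-chain network collagen of the vessel wall and the eye, rose. It measured 214, 133, 125 and 142 CPM without and 278, 168, 167 and 199 CPM with induction. The libraries numbered 1 were the highest of both groups, and among numbers 2 to 4 the groups did not overlap. Its log2 change was 0.40 (SE 0.037, adjusted p = 1.62e-05, edgeR with the block), with all 4 pairs between 0.34 and 0.49.

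COL12A1, a collagen that binds to fibril surfaces, measured 105, 159, 144 and 115 CPM without and 146, 185, 181 and 151 CPM with induction. Each induced library lay above its partner, while induced library 1 lay below non-induced library 2, so the groups overlapped. COL12A1 rose at a fitted log2 change of 0.35 (SE 0.0436, adjusted p = 1.94e-04).

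**Figure D3:**
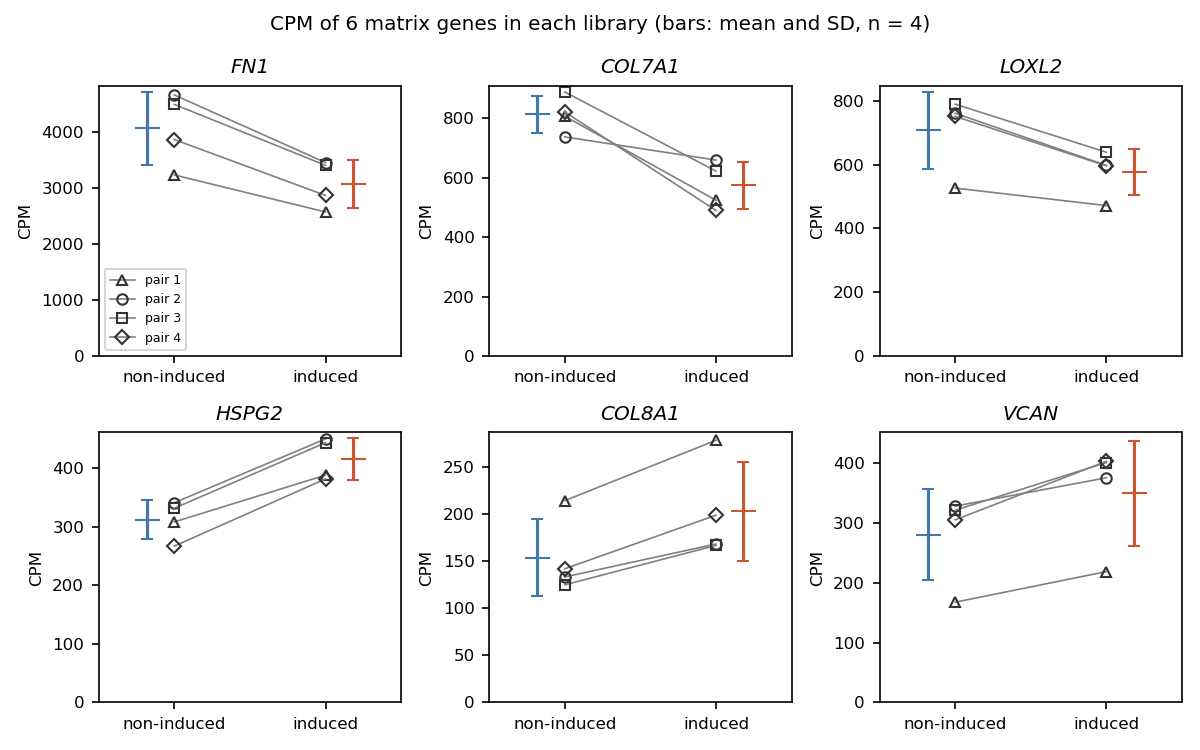
CPM (y axis from 0) of FN1, COL7A1, LOXL2, HSPG2, COL8A1 and VCAN is plotted in each non-induced and induced library, lines join same-numbered libraries, and colored bars give the mean and SD of 4 libraries. The lines of the upper row go down in all 4 pairs and those of the lower row go up, and the triangles of pair 1 lie lowest for FN1, LOXL2 and VCAN and highest for COL8A1.

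Among the matricellular genes, THBS1, which encodes the adhesion-modulating and TGF-β-activating protein thrombospondin 1, varied more with the library number than with induction. It stood at 549, 5233, 4504 and 4651 CPM in the non-induced and 594, 5272, 5279 and 5170.5 CPM in the induced libraries. Number 1 was 8.74-fold lower than the other 3 libraries in non-induced and 8.82-fold lower in induced cells. With the block THBS1 rose at a fitted log2 change of 0.13 (SE 0.038, adjusted p = 0.0398) in edgeR, with adjusted p = 0.0678, 0.300 and 0.172 without numbers 1, 3 and 4 and 0.0687 in DESeq2. Between numbers 2 to 4 the groups overlapped.

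TNC, the adhesion-modulating tenascin C, measured 114, 419, 381 and 328 CPM without and 124, 479, 455 and 375 CPM with induction. Every induced library lay above its partner, and the groups overlapped. TNC rose at a fitted log2 change of 0.19 (SE 0.0353, adjusted p = 0.00289) with the block.

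SPARC, a collagen-binding secreted glycoprotein, measured 856, 705, 695 and 772 CPM without and 1019, 752, 751 and 841 CPM with induction. It was higher in library 1 than in the others of both groups, and each induced library lay above its partner. The groups overlapped. SPARC rose at a fitted log2 change of 0.15 (SE 0.0362, adjusted p = 0.0166) with the block, and its adjusted p was 0.0590, 0.0661 and 0.0661 without numbers 1, 3 and 4.

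ECM1, a secreted glycoprotein that binds perlecan, measured 29.9, 57.6, 56.9 and 66.0 CPM without and 27.1, 50.8, 50.1 and 61.8 CPM with induction. All 4 induced libraries lay below their partners within overlapping groups. ECM1 fell at a fitted log2 change of -0.15 (SE 0.0434, adjusted p = 0.0325) with the block, a call that was lost without any 1 of the 4 numbers (adjusted p from 0.0515 to 0.149) and in DESeq2 (0.228).

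FSTL1, a follistatin-related secreted glycoprotein, averaged 291 ± 85.4 CPM without and 289 ± 86.8 CPM with induction (SD, n = 4) and differed by -0.0165 on the log2 scale (adjusted p = 0.792). THBS2, the close relative of THBS1, ranged from 1.09 to 2.99 CPM, with 2 pairs up and 2 down and an adjusted p of 0.784. POSTN encodes periostin, a matricellular protein of collagen-rich tissue. It had 0, 3, 1 and 3 reads in the non-induced and 6, 6, 5 and 5 in the induced libraries 1 to 4, too few to be tested. The induced libraries each held more reads than the non-induced ones, all under 7.

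Among the proteoglycans, VCAN encodes versican, a large hyaluronan-binding chondroitin sulfate proteoglycan. Its level was 168, 328, 321 and 305 CPM without and 219, 375, 401 and 403 CPM with induction. Library 1 was the lowest of each group, and among numbers 2 to 4 every induced library exceeded every non-induced one. VCAN rose at a fitted log2 change of 0.32 (SE 0.0393, adjusted p = 1.58e-04, edgeR with the block), higher in 4 of 4 pairs.

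LUM encodes lumican, a small leucine-rich proteoglycan that binds collagen fibrils. It averaged 67.8 ± 18.8 CPM without and 69.9 ± 21.3 CPM with induction (SD, n = 4), with pair differences of 0.0268, -0.28, 0.17 and 0.20 and an adjusted p of 0.816. The other small leucine-rich proteoglycans, BGN (biglycan) and DCN (decorin), held 27 and 25 reads over all 8 libraries and were not tested.

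HSPG2, which encodes the basement membrane heparan sulfate proteoglycan perlecan, rose (ENSG00000142798, chromosome 1, 21822245 to 21937297, minus strand, GRCh38). It stood at 308, 341, 332 and 267.1 CPM in the non-induced and 388, 450.3, 444 and 382 CPM in the induced libraries, from 312 ± 33.1 to 416 ± 35.9 CPM (SD, n = 4). All 4 induced libraries lay above all 4 non-induced ones. The log2 change was 0.42 (SE 0.0371, adjusted p = 1.17e-05) with the block in edgeR, and the adjusted p without it was 0.212. Its exons share 11.7% of their length with LDLRAD2 on the opposite strand, which lay at or below 0.238 CPM in all libraries.

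The other linker proteins did not pass. AGRN, the heparan sulfate proteoglycan agrin, was abundant and nearly level, at 1057 ± 125 CPM without and 1059 ± 95.6 CPM with induction (SD, n = 4) and a log2 difference of 0.00593 (SE 0.0335), whose sign changed with the scaling. NID1, which bridges laminin and collagen IV, averaged 89.1 ± 24.1 CPM without and 86.2 ± 17.6 CPM with induction with a log2 difference of -0.0315 (adjusted p = 0.719). NID2, its paralog, ranged from 0.840 to 2.94 CPM, and its difference of -0.55 (adjusted p = 0.102) reached an adjusted p of 0.0405 without the libraries numbered 1. The exons of NID2 share 30% of their length with RTRAF on the opposite strand, which lay at 112 to 129.8 CPM. The counting's strand setting is not given in the sources used here, so the level of NID2 is uncertain.

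The 3 cross-linking enzymes of the list fell. Among the lysyl oxidases outside it, LOXL4 rose, and LOX (log2 -0.22, adjusted p = 0.0529) and LOXL3 (log2 -0.21, adjusted p = 0.0855) did not pass. LOXL1, a lysyl oxidase relative linked to elastic fibers, measured 143, 119, 133 and 147 CPM without and 116, 102, 109 and 123 CPM with induction. Each induced library lay below its partner, with pair differences of -0.30, -0.23, -0.28 and -0.26, and the groups overlapped, since induced library 4 lay above non-induced library 2. LOXL1 fell at a fitted log2 change of -0.27 (SE 0.036, adjusted p = 3.61e-04, edgeR with the block). Its exons share 9.21% of their length with LOXL1-AS1 on the opposite strand, at 16.1 to 24 CPM.

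LOXL2, a lysyl oxidase relative that cross-links collagen IV, measured 527, 762, 790.1 and 752 CPM without and 472, 598, 639 and 596 CPM with induction. In each group library 1 was the lowest, and the induced libraries 2 to 4 all lay below the non-induced libraries 2 to 4. LOXL2 fell at a fitted log2 change of -0.29 (SE 0.0381, adjusted p = 3.32e-04) with the block. Of its exon length 2.1% is shared with ENTPD4 on the same strand.

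PXDN encodes peroxidasin, which forms the sulfilimine cross-links of collagen IV. It measured 83.0, 135, 134 and 139 CPM without and 81.4, 113, 121 and 120.3 CPM with induction, with the libraries numbered 1 nearly level and numbers 2 to 4 apart between groups. PXDN fell at a fitted log2 change of -0.16 (SE 0.0421, adjusted p = 0.0208) with the block, with adjusted p = 0.0924, 0.0687 and 0.0911 without numbers 2, 3 and 4 and 0.0713 in DESeq2.

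Of 97 other matrix genes in 4 lists, 59 were tested. With the block 4 rose and 7 fell, set against the 7.51% and 6.29% of all genes above. Without it none passed in edgeR, while DESeq2 called LOXL4 (adjusted p = 0.0385) and PLOD2 (adjusted p = 0.0391), with 1.36% of all genes called. Among 27 enzymes that fold, process and cross-link collagen, 2 rose and 3 fell. LOXL4, another lysyl oxidase relative, rose from 5.64 ± 1.17 to 12.6 ± 6.59 CPM (SD, n = 4; log2 1.10), and PLOD2, a collagen lysyl hydroxylase, fell from 96.5 ± 6.63 to 79.8 ± 3.78 CPM (log2 -0.27). P3H3, of the prolyl 3-hydroxylase family, and PCOLCE, an enhancer of procollagen C-proteinase, fell by log2 changes of -0.18 and -0.30. The call of LOXL4 was lost without number 3 (adjusted p = 0.111) or number 4 (0.112), while those of P3H3 and PCOLCE were lost without number 3 (0.150 and 0.174) or number 4 (0.165 and 0.164), and that of PCOLCE also without number 2 (0.0792). The other enzyme gene that rose was COLGALT2, a collagen galactosyltransferase relative, named after its values were seen, from 0.699 ± 0.278 to 1.19 ± 0.354 CPM (log2 0.76, adjusted p = 0.0493, and 0.0690 to 0.192 with any 1 number left out).

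Of 10 other tested collagens, COL11A1, a minor fibrillar chain, rose. It measured 25.6, 4.06, 3.55 and 5.44 CPM without and 49.3, 6.52, 5.71 and 11.8 CPM with induction, highest in library 1 of each group (log2 0.89, adjusted p = 3.89e-05). COL16A1, a fibril-associated collagen, fell (log2 -0.31; adjusted p without number 4, 0.0616). Of 17 tested glycoproteins 1 rose and 2 fell: CCDC80, a secreted matrix-binding protein, by log2 0.31, TGFBI, a TGF-β-induced adhesion protein, by -0.27, and LTBP4, which binds latent TGF-β, by -0.27 (adjusted p without number 4, 0.106). Of 5 tested proteoglycans, SPOCK1, a testican, fell (log2 -0.21), a call lost without number 2 (0.112), 3 (0.187) or 4 (0.0799).

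The libraries numbered 1 differed from the others of their group in many of the matrix genes. In both groups, library 1 lay below libraries 2 to 4 for 22 of the 32 tested matrix genes, where 28.1% of all genes had this pattern. It lay above them for 4 (COL1A1, COL8A1, SPARC and LUM), beside 28.2% of all genes. The log2 distance of library 1 from the mean of the other 3 was -3.12 in non-induced and -3.14 in induced cells for THBS1, -2.06 and -1.71 for COL5A1, and -1.97 and -1.68 for FBN1. TNC, with -1.71 and -1.80, was also far below, and LUM, with 0.70 and 0.69, was the furthest above. The scarce genes FBLN1 (-2.40 and -3.69), MFAP2 (-2.60 and -2.82) and COL6A3 (-2.91 and -1.89) lay further below than COL5A1, FBN1 and TNC. The labels give no batch, date or passage that sets library 1 apart, and these distances were not tested.

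**Figure D4:**
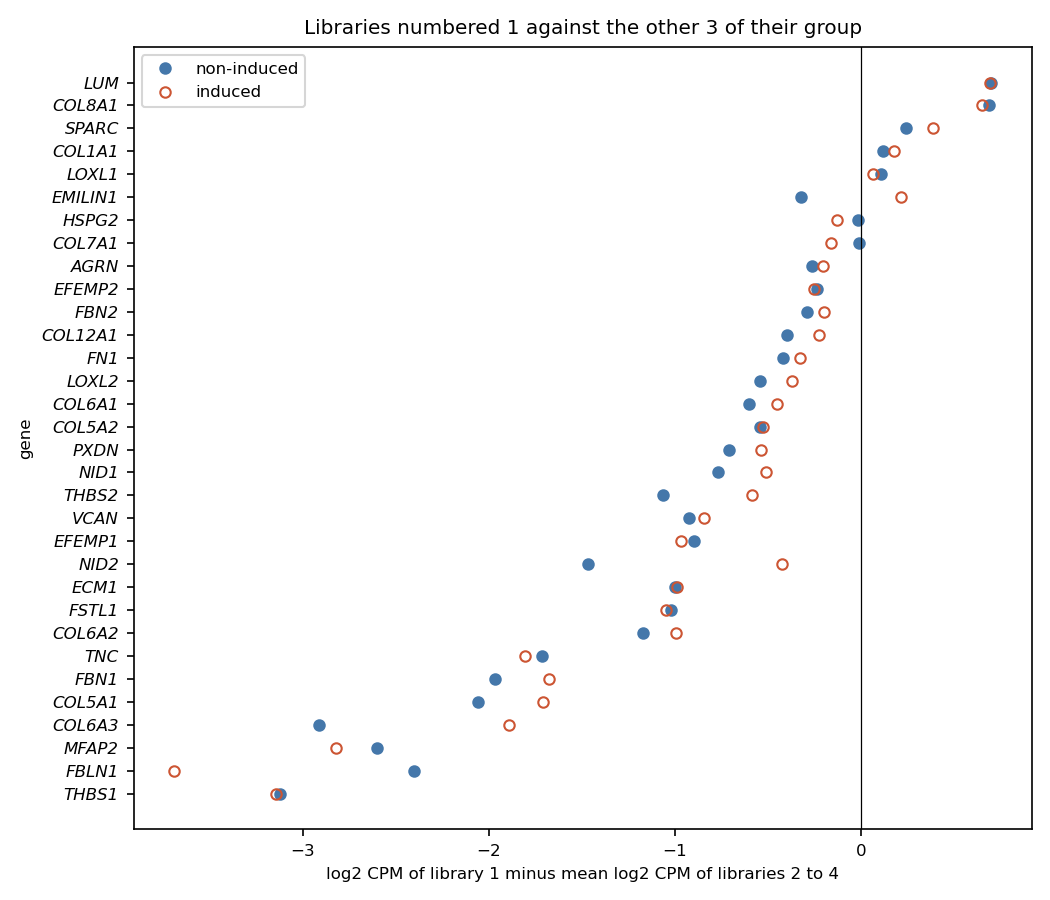
The x axis gives log2 CPM of library 1 minus the mean log2 CPM of libraries 2 to 4 for each of the 32 tested genes (rows), for non-induced (filled) and induced (open) cells. The 2 symbols of a gene mostly lie close together, with THBS1 near -3.1 and LUM near 0.7 in both groups.

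Markers of other cell types were set beside these results as summed CPM. The 8 fibroblast markers summed to 112 to 180.1 CPM without and 112 to 173 CPM with induction, mostly from THY1, with PDGFRA, DPT and SCARA5 at 0 reads, and MEOX1 fell (log2 -0.87). The 7 mesangial markers summed to 14.9 to 16.9 and 15.1 to 23.1 CPM, with ITGA8 at 0 reads and PDGFRB higher with the block (log2 0.34, adjusted p = 0.0299), a call lost without number 1 (0.119), 3 (0.104) or 4 (0.161) and in DESeq2 (0.120). The 8 parietal and tubular markers summed to 616 to 682 and 411 to 574 CPM, with LRP2 and AQP2 at 0 reads, PAX8 and CLDN1 lower (log2 -0.35 and -0.44) and PAX2 higher (log2 0.36). The call of PAX8 was lost without number 3 (0.0621) or 4 (0.197). The 11 podocyte markers summed to 29.7 to 75.1 and 36.9 to 74.4 CPM, with PODXL higher (log2 0.49, adjusted p = 0.0350), a call lost without number 1 (0.0874), 2 (0.0864) or 4 (0.155) and in DESeq2 (0.266). The 7 endothelial markers summed to at most 1.45 CPM and the 7 leukocyte markers to at most 4.15 CPM in any library. The part of these markers in the matrix gene results was not tested.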

How the data were processed

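Total RNA of 8 AB8 samples was sequenced from directional libraries in single reads of 75 bases, per the labels' protocols. Raw counts, keyed by Ensembl gene, were deposited by the authors beside a second file of normalized signal. A comparison of the deposited files showed that each library's signal is its counts over a single factor. Only the raw counts were tested. The submitters' processing notes list, with no role given, HTSeq 0.11.1, HISAT2 2.1.0, DESeq2 1.24.0, Trimmomatic 0.38 and bcl2fastq, and the build hg38/GRCh38. How strand was treated in counting, and with which annotation, is not given in the sources used here. Symbols, positions and exon lengths come from GENCODE 29, which matched 58275 of 58395 genes.

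Counts were fitted over the whole table in edgeR 4.0.16 (R 4.3.3; filterByExpr with a minimum count of 10, TMM scaling, robust glmQLFit, two-sided glmQLFTest, Benjamini-Hochberg adjustment, threshold 0.05), once without and once with the replicate number as a block. The labels give the same numbers to both groups, and each same-numbered pair of libraries correlated above 0.1 in its deviations from the group means (0.849, 0.529, 0.493 and 0.421). Pairs of unlike number ranged from -0.644 to 0.491, and those among numbers 2 to 4, at 0.216 to 0.491, also lay above 0.1. Pair differences are in log2 CPM with a prior count of 2, RPKM is CPM per kilobase of exon union, and the standard error is the log2 change divided by the square root of F. The procedure was tested on simulated data. DESeq2 1.42.0, other scalings and filters and left-out libraries were the alternatives. Of the 37 members, values in all 8 libraries are given for those past the threshold in either fit, those whose groups do not overlap and whose pairs share a sign, the 5 highest per length and those at least 2-fold apart in mean; up to 4 genes of each pathway list are named by smallest p. The 37 members and the other lists were chosen with earlier results of these data known. No label says that samples came from separate cultures, so the p-values may reflect technical spread only.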

Additional observations from a re-analysis of the deposited data

Results flagged for a closer look

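Among the tested matrix genes and CRB2, 13 of 66 groups of 4 libraries held 1 library far from the other 3. The measure was Dixon's ratio of gap to range, and in 12 of the 13 that library was number 1. Chance gives about 1 in 20 for independent groups, but these groups share the same 8 libraries. The ratio was not computed over all genes. Library 1 lay outside libraries 2 to 4, on the same side in both groups, for 56.4% of all genes and 26 of 32 matrix genes. In non-induced library 1, THBS1 lay at 549 CPM, FSTL1 at 164, VCAN at 168, EFEMP1 at 25.2, LOXL2 at 527 and PXDN at 83.0 CPM, each below its other 3 libraries. In induced library 1, THBS1 lay at 594 CPM, FSTL1 at 159.9, VCAN at 219, EFEMP1 at 28.9 and COL6A3 at 0.253 CPM, again the lowest of the 4. CRB2 itself was also lowest in induced library 1, at 1734 CPM. The exception was EMILIN1, which was highest in non-induced library 3 at 1.07 CPM.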

How the results depend on the processing

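The count of called matrix genes depended most on the block: 0 without and 18 with the replicate block. Without it, the count was 2 in DESeq2, 1 with no filter on low counts and 9 with both libraries numbered 1 left out, and stayed 0 when any single library was left out or the scaling was changed. With it, the count was 11 to 16 with 1 replicate number left out, 11 at an adjusted p of 0.01 and 13 to 20 under other tools, scalings and filters. For the other matrix genes the count with the block was 11, 4 to 16 with 1 number left out, 4 at 0.01 and 0 in edgeR without the block. The median log2 change of the 32 genes ranged from -0.22 to 0.055 with 1 library left out, the lowest without non-induced library 1. Signs of some genes, none called in that fit, changed without the block when 1 library was left out, over log2 ranges of -0.0714 to 0.0273 for COL1A1, -0.40 to 0.18 for COL5A1, -0.46 to 0.11 for FBN1, -1.05 to 0.20 for FBLN1, -0.40 to 0.32 for MFAP2, -0.23 to 0.48 for THBS1, -0.33 to 0.10 for THBS2, -0.0695 to 0.49 for TNC, -0.21 to 0.18 for FSTL1, -0.34 to 0.0392 for ECM1, -0.16 to 0.25 for LUM, -0.0594 to 0.0542 for AGRN and -0.21 to 0.0784 for NID1. With the block these ranges were -0.12 to 0.0267 for COL5A1, -0.25 to 0.0432 for THBS2, -0.0267 to 0.13 for LUM, -0.0146 to 0.017 for AGRN and -0.0969 to 0.00767 for NID1. AGRN, near 0 throughout, also changed sign to -0.000606 with RLE scaling, -0.00679 with upper-quartile scaling, -0.00471 with no filter and -0.0161 with both libraries numbered 1 left out, and with the block to -0.00394 with upper-quartile scaling and -0.00119 with no filter. The cause of these changes was not tested. Depth limits FBLN1, MFAP2, EMILIN1, THBS2, NID2 and COL6A3, which lay at a few CPM or less.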
